A study of Danio rerio with 9 samples.

Results

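The subject is a set of 9 zebrafish genes of brush border structure and epithelial adhesion, out of 26983 genes in the deposited tables. The gut transcription factor gene cdx1b is among them. They were taken by name, and each of the 9 names had a row: vil1, espn, cdhr2, cdhr5a, pdzk1, cdx1b, epcam, cdh1 and cdh17. The genes were selected on their function and on CPM levels and fold changes between groups already seen in these same libraries, and epcam is set beside the egg coat gene zp3 because their levels had been seen to move together. Levels of the 9 genes are therefore given as a description, and p-values from the fit across all genes support no statement about the set.

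RNA was sequenced from 9 intestine samples of Danio rerio, 3 each in the groups coded D3, SBM and FM. The study title names enteritis caused by soybean meal and β,β-dimethylacryloyl shikonin as an agent tested against it, but the meaning of the codes is not written in the labels. Strain, genotype, sex, age, dose and time are not given either. Whether a library came from 1 fish or a pool is not stated, so the p-values here reflect variation among the 9 libraries, biological or technical. The libraries held 34436497 to 36203230 counts. Levels are given as CPM (counts relative to the library total, which was scaled with TMM factors that correct for differences in composition), or as the authors' FPKM (fragments relative to gene length and library total) where genes are compared with each other.

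Absorptive cells of the gut carry a dense carpet of microvilli, each a finger of membrane around a bundle of actin filaments. Villin (vil1) and espin (espn) bundle that actin, and the protocadherins CDHR2 and CDHR5 link the tips of neighbouring microvilli in mammals. PDZK1 is a scaffold that holds transporters at the apical membrane, and CDX1 is a transcription factor of intestinal identity. E-cadherin (cdh1) joins epithelial cells at adherens junctions, cadherin 17 is the cadherin of liver and intestine, and EpCAM is an adhesion molecule of epithelial surfaces. The zona pellucida protein encoded by zp3 belongs to the coat of the egg.

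The tissue label was checked against marker genes. The 15 enterocyte markers with a row, fabp2 and fabp6 among them, summed to 18200 to 31400 CPM in D3, 21300 to 41000 CPM in SBM and 38300 to 52000 CPM in FM. Transcripts typical of other organs were present as well. The 31 oocyte and egg coat markers summed to 8460 CPM in D3 library 3 and 7920 CPM in SBM library 1, against 99.2 to 1100 CPM in the other 7. The 21 hepatocyte markers summed to 21900 and 74100 CPM in D3 libraries 1 and 2 and 49900 CPM in SBM library 2, against 475 to 4110 CPM in the other 6. The 16 markers of exocrine pancreas, an organ that adheres to the gut, summed to 66800 to 107000 CPM in D3, 82800 to 165000 CPM in SBM and 134000 to 179000 CPM in FM. D3 library 3 and SBM library 1 resembled each other more closely (Spearman 0.975 across the genes tested, which are not independent replicates) than either resembled another library of its own group (0.853 and 0.865 in D3, 0.869 and 0.92 in SBM). SBM library 2 was likewise closest to D3 library 2 (0.965), and SBM library 3 to FM library 1 (0.96), against 0.869 to 0.92 within SBM. The files do not show whether a sample was exchanged. The values of epcam and zp3 and the medians of the pathway lists are given with and without D3 library 3 and SBM library 1.

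Per gene length, 4 of the 9 genes stood among the most abundant transcripts of the intestine. In FM, villin averaged 463 ± 25.6 FPKM (SD, n = 3), cdhr2 406 ± 56 FPKM, pdzk1 404 ± 76.8 FPKM and cdh17 388 ± 41.8 FPKM, which placed them at ranks 220 to 259 of 26983 genes. The differences between these 4 are within or close to their spread. E-cadherin followed at 83.5 ± 3.62 FPKM, cdx1b at 39.1 ± 0.876 FPKM and epcam at 16.7 ± 2.3 FPKM, 3 levels whose FM libraries do not overlap. The last 2 genes were close to absent.

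Espin was found at 5 to 13 counts per library, with sums of 25 counts in D3, 22 in SBM and 22 in FM. The mean was 0.0602 FPKM in D3, 0.0536 FPKM in SBM and 0.0533 FPKM in FM, and the 3 groups overlapped. Espin was the 1 gene of the 9 that did not pass the filter on low counts, so no difference was fitted for it. Its relative espnla was at 0 to 0.154 FPKM, and the villin relative vill at 0.0287 to 0.523 FPKM.

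The protocadherin row named cdhr5a was also nearly empty, with 60 counts in D3, 50 in SBM and 6 in FM. It passed the filter through the 3 libraries with more than 10 counts, none of them in FM, so a difference from FM was built into its passing. Its paralogue cdhr5b was far more abundant, at a mean of 90.5 FPKM in D3, 104 FPKM in SBM and 141 FPKM in FM, which lay between E-cadherin and cadherin 17. The genes espnla, vill, cdhr5b and pls1 are named here and below after their values were seen. Whether the authors' counting could split reads between paralogues is not given in the sources used here.

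**Figure D1:**
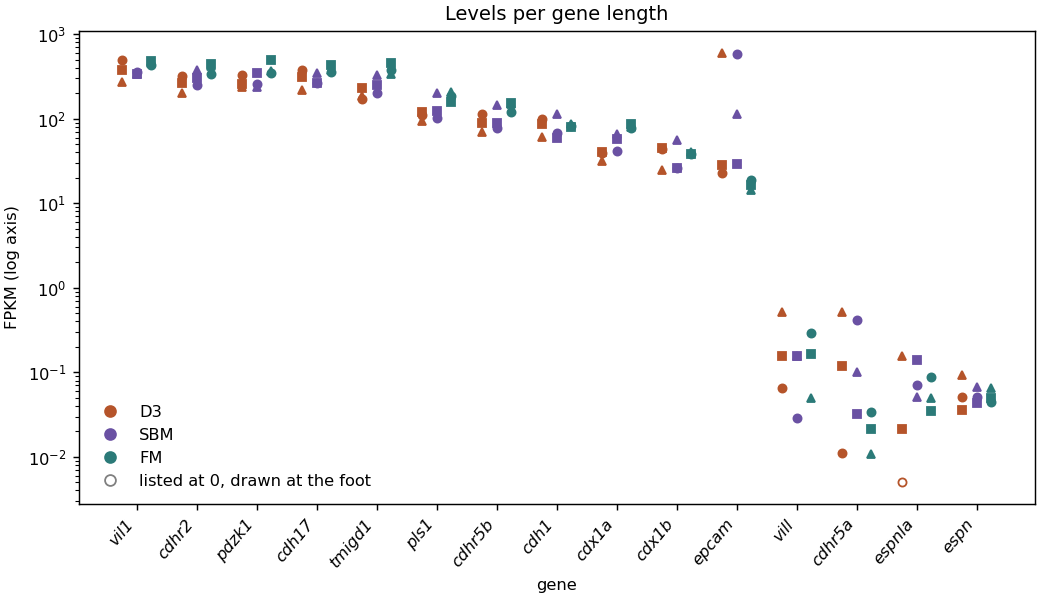
FPKM (log axis) of each library for the 9 genes and 6 related genes, with D3, SBM and FM side by side and the symbols circle, square and triangle for libraries 1, 2 and 3. The 7 abundant genes of the 9 lie between 14.5 and 605 FPKM, while vill, cdhr5a, espnla and espn lie at or under 0.523 FPKM in every library.

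Villin, the actin bundler of the microvillus core, had 1650, 1250 and 802 CPM in D3, 1040, 1350 and 955 CPM in SBM, and 1680, 1800 and 1810 CPM in FM. Each SBM and each D3 library lay below each FM library on this scale, and D3 library 1 came close to FM. On the FPKM scale D3 library 1 stood at 498 FPKM, above the FM range of 438 to 489 FPKM. The group means were 1230 ± 424 CPM in D3, 1110 ± 208 CPM in SBM and 1760 ± 71.8 CPM in FM (SD, n = 3 each). The coefficient of variation was 34.4% in D3 and 18.6% in SBM, against 4.07% in FM.

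The protocadherin gene cdhr2, whose product forms the links between microvillus tips, had 1460, 1210 and 814 CPM in D3, 1020, 1670 and 1480 CPM in SBM, and 1840, 2310 and 2330 CPM in FM. Again no D3 or SBM library reached the FM range. On the FPKM scale, which has no TMM factor, SBM library 3 stood at 379 FPKM and lay inside the FM range of 343 to 450 FPKM.

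The scaffold gene pdzk1 had 743, 588 and 473 CPM in D3, 517, 946 and 458 CPM in SBM, and 925, 1240 and 991 CPM in FM. The D3 libraries lay below FM, while SBM library 2 lay inside the FM range on the CPM scale. On the FPKM scale SBM library 2 stood at 346 FPKM, just below the lowest FM library at 352 FPKM.

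Cadherin 17 followed villin closely. It had 1240, 1010 and 633 CPM in D3, 751, 1030 and 961 CPM in SBM, and 1340, 1580 and 1440 CPM in FM, so neither group overlapped with FM on this scale. On the FPKM scale D3 library 1 stood at 380 FPKM, inside the FM range of 356 to 435 FPKM. The root mean square difference between the 2 genes over the 9 libraries was 0.133 on the log2 scale, after each was centred on its own mean.

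E-cadherin had 320, 277 and 171 CPM in D3, 194, 232 and 309 CPM in SBM, and 308, 289 and 335 CPM in FM. D3 library 1 and SBM library 3 lay inside the FM range, and D3 library 3 was lowest. The transcription factor gene cdx1b had 83, 85.6 and 41.2 CPM in D3, 43.4, 59 and 88.5 CPM in SBM, and 84.1, 80.9 and 89.8 CPM in FM. D3 libraries 1 and 2 and SBM library 3 lay inside the FM range of cdx1b, and the remaining 3 libraries lay well below it. The profiles of cdh1 and cdx1b differed by 0.131 (root mean square, log2), the smallest value among the 28 pairs of the 8 genes tested, while cdx1b and pdzk1 differed by 0.493.

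**Figure D2:**
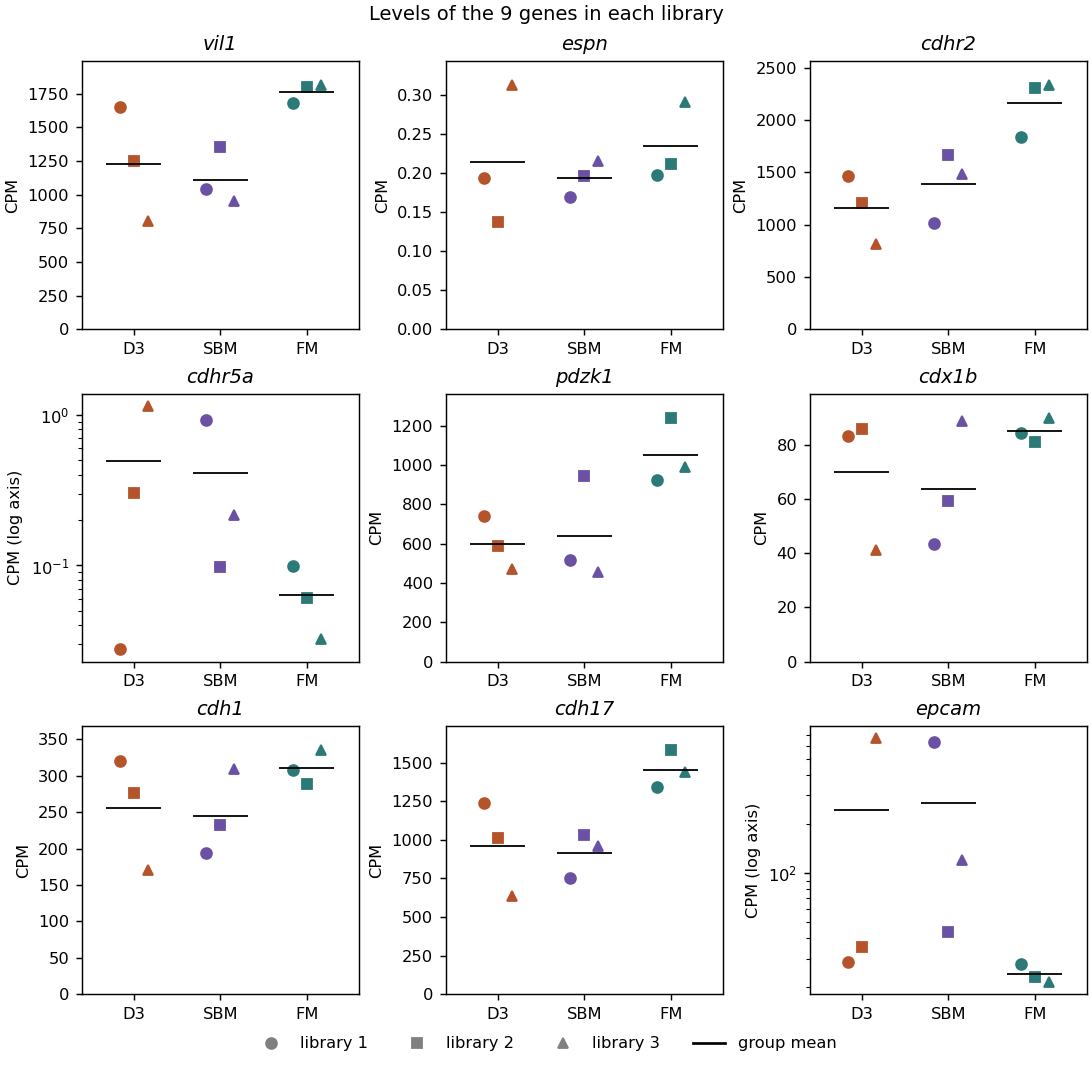
CPM of the 9 genes in each library of D3, SBM and FM (circle, square and triangle for libraries 1, 2 and 3), with a line at each group mean and log axes for cdhr5a and epcam. For vil1, cdhr2 and cdh17 each FM library lies above each SBM and D3 library, while epcam and cdhr5a have their 2 highest values in D3 library 3 and SBM library 1.

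D3 library 3 had the lowest level of the 9 libraries in vil1, cdhr2, cdh17, cdh1 and cdx1b, and SBM library 3 had the lowest level of pdzk1. Together these 6 genes took 0.339% of all counts in D3 library 3 and 0.453 and 0.561% in the other D3 libraries. They took 0.415 to 0.512% in SBM and 0.544 to 0.67% in FM. The lowest SBM share, 0.415%, was that of library 1. D3 library 3 and SBM library 1 were also the highest in oocyte and egg coat markers, at 8460 and 7920 CPM. In tissue samples such as these, fewer epithelial cells, less RNA per epithelial cell and more RNA from other organs cannot be told apart.

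Ratios within a library do not depend on how libraries are scaled to each other. The FPKM ratio of cdhr2 to vil1 was 0.635, 0.698 and 0.727 in D3, 0.705, 0.888 and 1.11 in SBM, and 0.783, 0.92 and 0.924 in FM. Each D3 library therefore had less cdhr2 per vil1 than each FM library, while SBM overlapped with both. For cdh1 to cdh17 the ratio was 0.261 to 0.278 in D3, 0.227 to 0.324 in SBM and 0.185 to 0.235 in FM. D3 and FM were thus apart there as well. The share of all gene pairs whose ratios are apart was not computed. The ratio of cdh17 to vil1 was 0.762 to 0.822 in D3, 0.735 to 1.02 in SBM and 0.81 to 0.889 in FM, and here the groups overlapped. SBM library 3 stood apart in its proportions, with the highest ratios to vil1 of cdhr2, cdh17 and cdx1b. For cdx1b the ratio was 0.163 there, against 0.0736 to 0.121 in the other 8 libraries. The ratio of pdzk1 to vil1 was not raised there, at 0.70 against 0.658 to 1.02 in the other 8.

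EpCAM had an unlike pattern. It stood at 28.5, 35.4 and 669 CPM in D3, 636, 43.7 and 121 CPM in SBM, and 27.8, 23.1 and 21.6 CPM in FM. D3 library 3 and SBM library 1 were far above the rest, SBM library 3 was intermediate, and each D3 and SBM library lay above each FM library. The group means of 244 ± 368 CPM in D3 and 267 ± 322 CPM in SBM have an SD above the mean. The FM mean was 24.2 ± 3.21 CPM.

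The egg coat gene zp3 had 50.5, 24.8 and 448 CPM in D3, 570, 26.6 and 69.4 CPM in SBM, and 17.3, 23.3 and 7.54 CPM in FM. The same 3 libraries were highest in both genes, although D3 library 3 led in epcam and SBM library 1 in zp3. FM library 3 was lowest in both. The ratio of epcam to zp3 counts was 0.565, 1.43 and 1.49 in D3, 1.12, 1.65 and 1.74 in SBM, and 1.6, 0.99 and 2.87 in FM, so it did not set the 3 highest libraries apart. Over the 9 libraries epcam spanned a factor of 30.9 and zp3 a factor of 75.5.

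**Figure D3:**
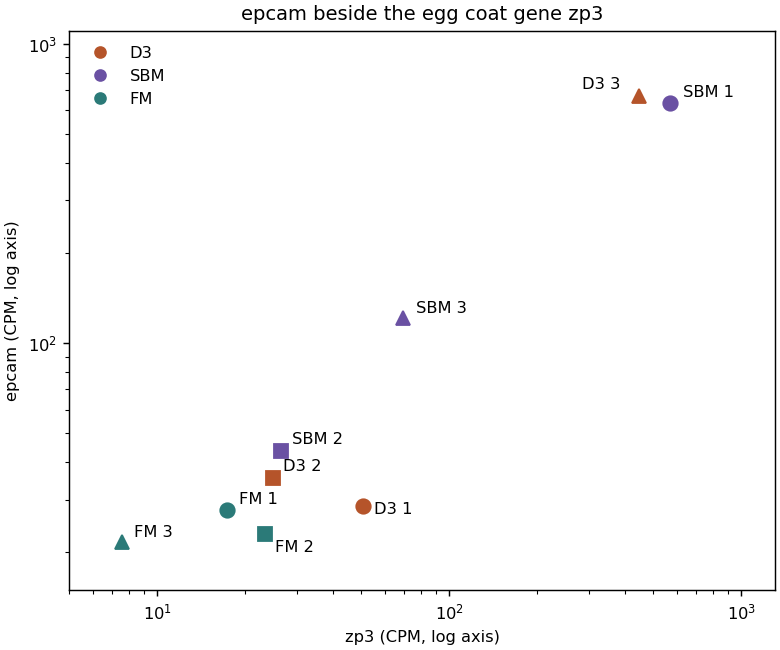
epcam against zp3 in the 9 libraries, both in CPM on log axes, coloured by group. D3 library 3 and SBM library 1 stand at 669 and 636 CPM of epcam with 448 and 570 CPM of zp3, SBM library 3 stands between, and the other 6 libraries lie at 21.6 to 43.7 CPM of epcam.

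Other egg genes stood at the same libraries. The oocyte growth factor gene gdf9 was at 20.2 CPM in D3 library 3 and 16.2 CPM in SBM library 1, against 0.291 to 2.78 CPM elsewhere, and the oocyte gene zar1 was at 425 and 407 CPM in these 2 libraries, against 2.1 to 47 CPM elsewhere. The 16 other epithelial markers, mostly keratins and claudins, summed to 4370 CPM in D3 library 3 and 4030 CPM in SBM library 1, the 2 lowest sums, against 5260 to 8500 CPM in the other 7. Of these, the keratin gene krt8 was likewise lowest there (675 and 761 CPM, against 983 to 1320 CPM elsewhere), while the claudin gene cldn7b was highest there (55.7 and 67.3 CPM, against 6.21 to 21 CPM elsewhere); these 2 were picked after their values were seen. The part of egg tissue in the epcam values was not tested.

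Against E-cadherin, epcam was high in the same libraries. The FPKM ratio of epcam to cdh1 was 0.229, 0.328 and 10 in D3, 8.42, 0.485 and 1.01 in SBM, and 0.232, 0.206 and 0.166 in FM. In the 2 libraries highest in egg coat genes epcam thus exceeded E-cadherin per length, and in 6 of the other 7 it was below E-cadherin by a wide margin. Another adhesion gene, pvrl3b, named after its values were seen, was also highest in these 2 libraries. It had 31 CPM in D3 library 3 and 24.5 CPM in SBM library 1, against 0.647 to 3.4 CPM elsewhere.

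The few reads of cdhr5a followed the same libraries. It had 1, 11 and 48 counts in D3, 38, 3 and 9 counts in SBM, and 3, 2 and 1 counts in FM. At this depth the libraries other than the 2 highest cannot be ranked firmly.

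The genes most like epcam were looked for among the 16344 genes with a mean of at least 1 CPM, by the root mean square difference of centred log2 CPM over the 9 libraries. The 5 nearest with a gene symbol were mthfd2l (0.195), c1galt1a (0.233), lmnl3 (0.235), npm2a (0.28) and pvrl3b (0.282), and zp3 ranked 270th at 0.607. The gene lmnl3, for example, had 4.79, 6.38 and 101 CPM in D3, 85.2, 9.6 and 16.4 CPM in SBM, and 5.67, 4.29 and 3.79 CPM in FM. For the mean profile of the 4 tested microvillus genes the nearest were ube2e1 (0.0704), stk40, tmem18, tefm and tmem131, genes that hardly vary between libraries, because cdhr5a runs against the other 3 in that mean. For vil1 alone, added after the values were seen, the nearest were rps4x (0.0929), slc9a3r1a (0.109), ethe1, dusp16 and pdlim4.

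**Figure D4:**
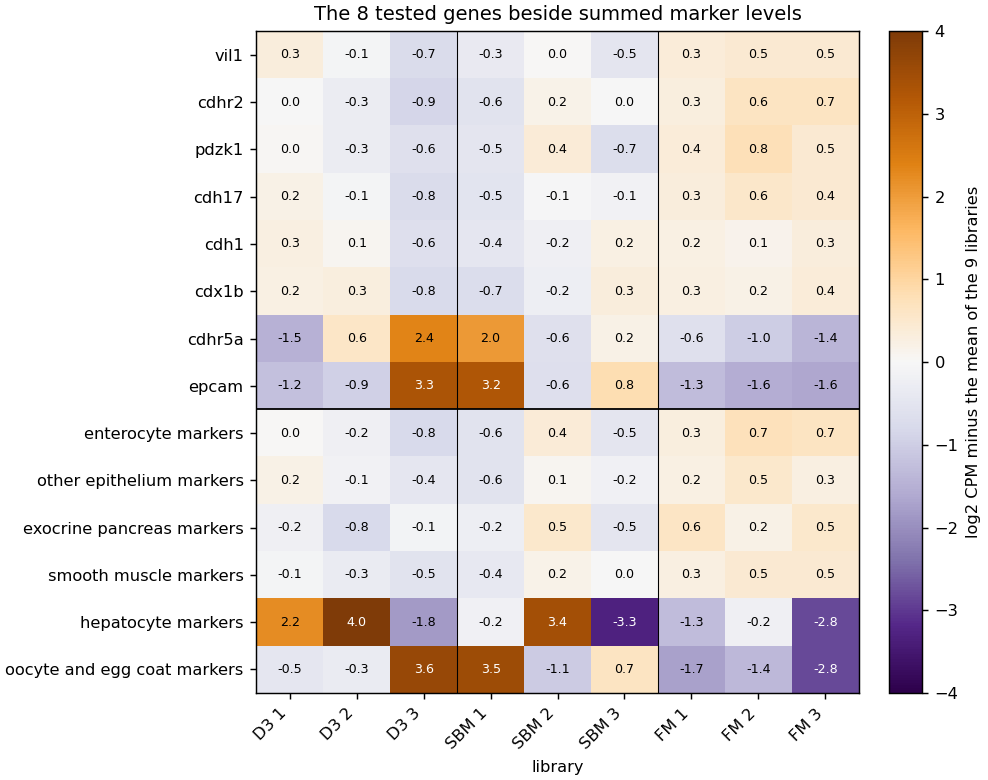
log2 CPM of the 8 tested genes (above the line) and of the summed marker lists (below it) in each library, each row minus its mean over the 9 libraries, in log2 units. epcam and cdhr5a share their 2 highest libraries with the oocyte and egg coat markers, while the other 6 genes are low there, as the enterocyte markers are.

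In SBM against FM, the question was how the intestine of the SBM group differed at the brush border. By the fitted value 6 of the 8 tested genes were lower in SBM (vil1, cdhr2, pdzk1, cdh17, cdh1 and cdx1b) and 2 were higher (epcam and cdhr5a). The median log2 fold change was −0.52 over the 8, where it was −0.01 over all 19450 genes tested. Over the 6 without epcam and cdhr5a, which were set aside after their values were seen, it was −0.65, and the shared sign of those 6 was fixed by that choice. None of the 8 passed at an adjusted p under 0.05. Villin had a log2 fold change of −0.66 ± 0.29 (SE), cdh17 −0.67 ± 0.28, pdzk1 −0.72 ± 0.32 and cdhr2 −0.64 ± 0.29, each with an adjusted p of 0.541 by edgeR's quasi-likelihood test with Benjamini-Hochberg adjustment. For cdx1b the value was −0.41 ± 0.34 and for cdh1 −0.34 ± 0.28, with an edgeR adjusted p of 0.611 for both.

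The test called 0 of the 8 tested genes and 0 of all 19450 genes (0%), as did limma-voom, while DESeq2 called 238 genes (1.22%), none of them among the 8. At an unadjusted p under 0.05, edgeR had 1738 genes (8.94%), with 3.41% of genes lower and 5.53% higher, and 3 of the 8 genes among them: vil1 and cdh17, lower in SBM, and epcam, higher in SBM. Ranges of SBM and FM were apart for 19.9% of all genes. They were apart with SBM lower for vil1, cdhr2 and cdh17 (10.3% of all genes) and with SBM higher for epcam (9.56% of all genes). Nothing about the set is read from these counts, since its genes were proposed with this comparison in view.

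epcam had a log2 fold change of 3.46 ± 1.39 in SBM against FM and zp3 3.79 ± 1.42. Without D3 library 3 and SBM library 1, the value was 1.80 ± 0.40 for epcam and 1.61 ± 0.58 for zp3. SBM then held epcam at 43.7 CPM in library 2 and 121 CPM in library 3. For cdhr5a the value was 2.64 ± 1.30, and without D3 library 3 and SBM library 1 it no longer passed the filter. The 6 genes were again all lower without them, with a median of −0.48 and values between −0.59 for vil1 and −0.18 for cdh1 and cdx1b. In the fit with all libraries the enterocyte markers were lower as well, with 15 of 15 negative and a median of −0.73. So were 12 of 12 smooth muscle markers (median −0.43) and 16 of 16 exocrine pancreas markers (median −0.47). By that fit the hepatocyte markers (21 of 21) and the oocyte and egg coat markers (30 of 30) were higher. The hepatocyte sum was 4110, 49900 and 475 CPM in SBM, against 1900, 4050 and 657 CPM in FM, so SBM library 2 carried that direction and library 3 lay below FM. The part of any of these tissues in the brush border values was not tested.

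In D3 against FM, the same 6 of the 8 genes were lower in D3 and the same 2 higher. The median log2 fold change was −0.40 over the 8 and −0.56 over the 6, where all genes had a median of 0.04. The value was −0.89 ± 0.29 for cdhr2 (edgeR adjusted p = 0.32), −0.81 ± 0.32 for pdzk1 (adjusted p = 0.325), −0.60 ± 0.28 for cdh17 (adjusted p = 0.337) and −0.52 ± 0.29 for vil1 (adjusted p = 0.379). For cdx1b it was −0.28 ± 0.34 and for cdh1 −0.28 ± 0.28, with edgeR adjusted p-values of 0.662 and 0.599.

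None of the 8 tested genes was called, and edgeR called 0 of 19450 genes (0%), as did limma-voom. DESeq2 called 918 (4.72%), none of them among the 8. At an unadjusted p under 0.05, edgeR had 2954 genes (15.2%), with 7.14% of genes lower and 8.05% higher, and 3 of the 8 genes among them: cdhr2 and pdzk1, lower in D3, and epcam, higher in D3. Ranges of D3 and FM were apart for 26.4% of all genes. They were apart with D3 lower for vil1, cdhr2, pdzk1 and cdh17 (13.6% of all genes) and with D3 higher for epcam (12.8% of all genes). As before, nothing about the set is read from these counts. On the FPKM scale vil1 and cdh17 overlapped, because D3 library 1 stood at 498 and 380 FPKM, inside or above the FM range.

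The value of epcam in D3 against FM rested on 1 library. It was 3.34 ± 1.38 with all libraries and 0.38 ± 0.91 without D3 library 3. For zp3 the values were 3.44 ± 1.40 and 1.21 ± 1.12. The sparse cdhr5a stood at 2.90 ± 1.30 with all libraries and 1.31 without D3 library 3. Without D3 library 3 and SBM library 1 the 6 genes stayed lower in D3 with a median of −0.33, but cdx1b (−0.02 ± 0.20) and cdh1 (−0.06 ± 0.20) were then close to 0. Of the enterocyte markers, 14 of 15 were negative with a median of −0.84 in the fit with all libraries. In that fit 12 of 12 smooth muscle markers (median −0.71) and 16 of 16 exocrine pancreas markers (median −0.79) were lower too. The hepatocyte markers (21 of 21) and the oocyte and egg coat markers (30 of 30) were higher. The hepatocyte sum was 21900, 74100 and 1320 CPM in D3, and library 3 lay inside the FM range of 657 to 4050 CPM.

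In D3 against SBM, 5 of the 8 genes were higher and 3 lower in D3, although the labels do not say which group received the agent of the title. Their median log2 fold change was 0.07, against 0.03 for all genes. Villin was at 0.15 ± 0.29 (95% interval −0.51 to 0.80), cdh17 at 0.07 ± 0.28 (−0.56 to 0.70), cdh1 at 0.06 ± 0.28 (−0.57 to 0.70) and cdx1b at 0.13 ± 0.34 (−0.64 to 0.91). The value was −0.26 ± 0.29 for cdhr2 (−0.92 to 0.41) and −0.09 ± 0.32 for pdzk1 (−0.83 to 0.65). Each edgeR adjusted p was 1. These intervals leave room for differences in either direction, so the values do not show that the groups are alike.

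No gene of the 8 was called and no gene of the 8 had groups that did not overlap, which held for 4.56% of all genes (2.0% with D3 higher and 2.56% with D3 lower). edgeR and limma-voom called 0 of 19450 genes (0%), DESeq2 called 5 (0.0257%), and 402 genes (2.07%, 0.746% higher and 1.32% lower in D3) had an edgeR unadjusted p under 0.05, none of the 8 among them. For epcam the value was −0.13 ± 1.26, which turned to −3.10 ± 1.04 without D3 library 3 and to 1.58 ± 1.32 without SBM library 1. Without both it was −1.40 ± 0.45. The sign for epcam thus depends on which of these libraries is kept. For zp3 the value was −0.35 ± 1.27 with all libraries, −2.60 ± 1.26 without D3 library 3, 1.87 ± 1.22 without SBM library 1 and −0.38 ± 0.65 without both. For cdhr5a it was 0.26 ± 1.1 with all libraries, −1.35 ± 1.16 without D3 library 3 and 1.63 ± 1.24 without SBM library 1. All 3 genes were negative without D3 library 3 and positive without SBM library 1. These 2 libraries are the highest in each of the genes, so the direction of each shift was fixed by the choice. Without both, epcam lay further below SBM than zp3 did, a difference that was not tested. SBM then held epcam at 43.7 CPM in library 2 and 121 CPM in library 3, where the egg markers summed to 1100 CPM. D3 library 1 had 50.5 CPM of zp3 beside 28.5 CPM of epcam. Both comparisons with FM share its 3 libraries, and both comparisons with SBM share the SBM libraries, so the 3 sets of values are not independent.

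**Figure D5:**
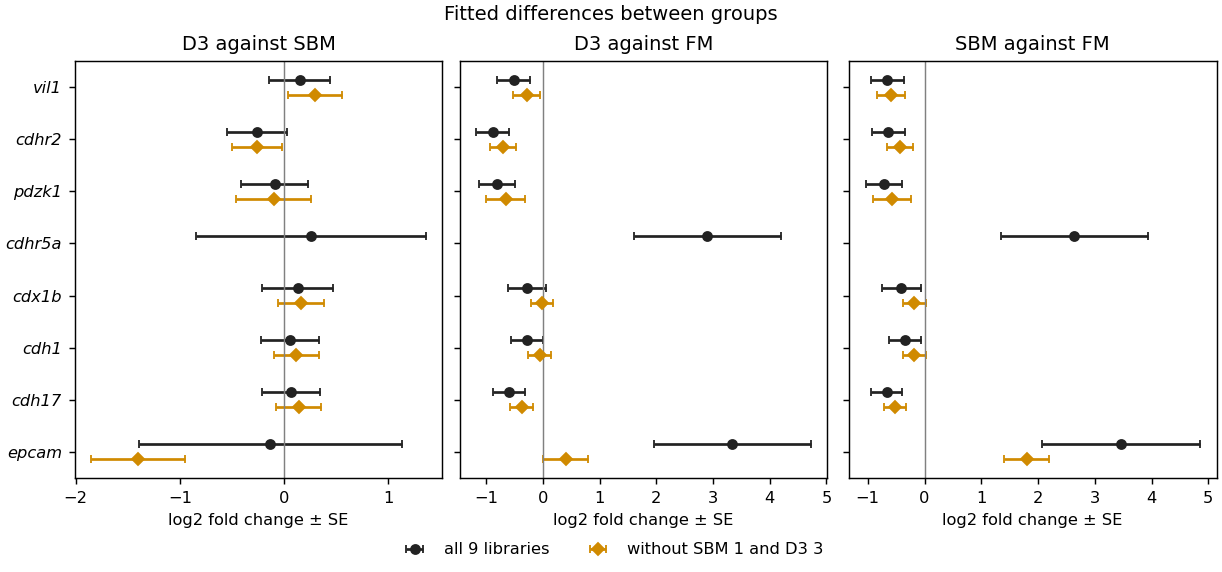
Fitted log2 fold change ± SE of the 8 tested genes in D3 against SBM, D3 against FM and SBM against FM, with all 9 libraries (circles) and without D3 library 3 and SBM library 1 (diamonds; cdhr5a did not pass the filter there). Against FM, vil1, cdhr2, pdzk1 and cdh17 lie between −0.89 and −0.29 in both fits, while epcam in D3 against FM is at 3.34 with all libraries and 0.40 without the 2.

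Other microvillus genes were read from a list of 50 names beside the 9 genes, of which 41 had a row and 35 passed the filter. In SBM against FM 27 of the 35 were lower and 8 higher, with a median of −0.50. None passed the edgeR test or DESeq2. At an edgeR unadjusted p under 0.05 there were 4 higher and 6 lower genes, where 5.53% of all genes were higher and 3.41% lower. The largest positive values were those of msnb (4.9), calml4b (3.65), myo1hb (3.09) and eps8l1 (1.88), which averaged 0.00876 to 0.0914 FPKM in FM. They passed the filter through libraries outside FM, so a difference from FM was built into their passing. In D3 against FM 26 were lower and 9 higher, with a median of −0.55. None passed the edgeR test, 1 higher and 10 lower genes had an edgeR unadjusted p under 0.05, and DESeq2 called 1 higher and 2 lower. Over all genes the shares were 8.05% higher and 7.14% lower at that p, and 4.72% called by DESeq2. In D3 against SBM 20 were lower and 15 higher, with a median of −0.12, and neither tool called any, with 2 lower genes at an edgeR unadjusted p under 0.05 (1.32% of all genes). Without D3 library 3 and SBM library 1 the medians were −0.42 in D3 against FM, −0.28 in SBM against FM and −0.04 in D3 against SBM. With library size in place of TMM factors the list had 20 lower and 15 higher genes in D3 against FM (median −0.29) and 23 lower and 12 higher in SBM against FM (median −0.24). That scaling moved the median of all genes to 0.30 in D3 and 0.26 in SBM against FM, and relative to it the list lay at −0.59 in D3 and −0.50 in SBM. This list and those that follow were chosen with earlier results known, so they add no independent support.

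Within that list, tmigd1, an adhesion molecule of the brush border in mammals, had 203, 275 and 193 CPM in D3, 212, 355 and 330 CPM in SBM, and 526, 611 and 477 CPM in FM. Each D3 and SBM library lay below FM, with log2 fold changes of −1.27 ± 0.26 in D3 against FM and −0.85 ± 0.26 in SBM against FM (edgeR adjusted p = 0.32 and 0.541). Ranges were apart in that direction for 13.6% of all genes in D3 and 10.3% in SBM, and tmigd1 was named for its low p. The myosin gene myo1hb ran the other way at a low level, with 1.66, 1.48 and 1.82 CPM in D3, 2.13, 3.46 and 0.981 CPM in SBM, and 0.231, 0.302 and 0.227 CPM in FM. Its log2 fold change was 2.69 ± 0.49 in D3 and 3.09 ± 0.50 in SBM against FM, with the same adjusted p-values. With 7, 10 and 7 counts in FM it passed the filter through D3 and SBM. A difference from FM was thus built into its passing, as for cdhr5a. In D3 against SBM the lowest unadjusted p-values of the list were those of eps8l1 (−1.91 ± 0.61), a gene of under 1.3 CPM, and baiap2l1a (−0.50 ± 0.21), both with an edgeR adjusted p of 1. For eps8l1, with 0.111, 0.164 and 0.384 CPM in D3, the filter was passed through SBM (0.581, 1.27 and 0.67 CPM), so a difference was built in.

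The actin bundler gene pls1 had 431, 462 and 317 CPM in D3, 347, 583 and 657 CPM in SBM, and 836, 679 and 945 CPM in FM. The paralogue cdhr5b had 400, 309 and 214 CPM in D3, 239, 379 and 429 CPM in SBM, and 492, 599 and 620 CPM in FM. For both, no D3 or SBM library reached the FM range on this scale. Over all genes, ranges were apart in that direction for 13.6% in D3 and 10.3% in SBM. On the FPKM scale SBM library 3 lay inside the FM range for both. It stood at 201 FPKM of pls1 (FM 158 to 206 FPKM) and 144 FPKM of cdhr5b (FM 121 to 154 FPKM). The log2 fold change of cdhr5b was −0.89 ± 0.31 in D3 and −0.71 ± 0.30 in SBM against FM. That was close to cdhr2, its binding partner in mammals, and likewise to pls1 (−1.02 and −0.63) and pdzk1 (−0.81 and −0.72). A difference from FM was built into the passing of the sparse cdhr5a, so the signs of the 2 paralogues are not compared.

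Other adhesion genes, 33 tested of 46 listed, lay closer to FM. In SBM against FM 22 were lower and 11 higher with a median of −0.13, in D3 against FM 21 and 12 with a median of −0.11, and in D3 against SBM 16 and 17 with a median of 0.03. None passed the edgeR test. At an edgeR unadjusted p under 0.05 there were 1 higher and 2 lower genes in SBM against FM, 1 and 3 in D3 against FM and 0 in D3 against SBM, and DESeq2 called 1 lower gene in each comparison with FM. The shares over all genes are those given for the microvillus list, and 1.22% for DESeq2 in SBM against FM. Without D3 library 3 and SBM library 1 the medians were −0.10 in D3 against FM, −0.15 in SBM against FM and −0.03 in D3 against SBM. With library size in place of TMM factors the medians against FM turned positive, at 0.16 in D3 and 0.15 in SBM. Relative to the median of all genes the adhesion list then lay at −0.15 in D3 and −0.11 in SBM. On the same footing vil1 lay at −0.57 in D3 and −0.68 in SBM.

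The protease inhibitor gene spint2, whose human counterpart guards epithelial integrity, had 103, 123 and 119 CPM in D3, 114, 142 and 165 CPM in SBM, and 207, 211 and 205 CPM in FM. Its log2 fold change was −0.85 ± 0.20 in D3 and −0.57 ± 0.19 in SBM against FM (edgeR adjusted p = 0.32 and 0.541). The membrane protease gene st14a, which encodes a matriptase, stood at −0.52 ± 0.16 in SBM against FM and the laminin receptor gene itga6b at −0.54 ± 0.19 in D3 against FM. In D3 against SBM the lowest unadjusted p-values of this list belonged to spint2 (−0.29 ± 0.19) and cdh26.1 (−0.42 ± 0.35).

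Transcription factors of the gut, 25 tested of 28 listed, were compared in the same way. The counts were 19 lower and 6 higher in SBM against FM (median −0.38), 21 and 4 in D3 against FM (median −0.36), and 17 and 8 in D3 against SBM (median −0.09), with 0 passing the edgeR test. DESeq2 called 1 higher and 1 lower gene in D3 against FM, where it called 4.72% of all genes. The edgeR unadjusted p was under 0.05 for 3 genes in SBM against FM, 4 in D3 against FM and 0 in D3 against SBM, where the shares of all genes were 8.94% in SBM against FM, 15.2% in D3 against FM and 2.07% in D3 against SBM. Without D3 library 3 and SBM library 1 the medians against FM were −0.13 in D3 and −0.19 in SBM, and −0.10 in D3 against SBM. With library size in place of TMM factors they were −0.12 in D3 and −0.13 in SBM, and relative to the median of all genes −0.42 in D3 and −0.39 in SBM. The paralogue of cdx1b, cdx1a, had 85.2, 87.4 and 60.5 CPM in D3, 78.5, 150 and 120 CPM in SBM, and 195, 208 and 206 CPM in FM. Unlike cdx1b, it lay below FM in each D3 and SBM library, with −1.39 ± 0.27 in D3 and −0.81 ± 0.27 in SBM against FM (edgeR adjusted p = 0.32 and 0.541), and −0.58 ± 0.27 in D3 against SBM (adjusted p = 1). Ranges were apart with the group lower for 13.6% of all genes in D3 and 10.3% in SBM against FM, and cdx1a was named for its low p. The difference between the paralogues was not tested.

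The transcription factor gene gata4 was at 4.13, 2.11 and 0.767 CPM in D3, 0.436, 2.22 and 0.239 CPM in SBM, and 0.231, 0.151 and 0.129 CPM in FM. Its 3 highest libraries were the 3 highest in hepatocyte markers, and their part in its log2 fold changes of 3.75 ± 0.99 in D3 and 2.47 ± 0.96 in SBM against FM was not tested. At 0.129 to 0.231 CPM in FM, gata4 passed the filter through D3 and SBM, so a difference from FM was built into its passing. In D3 against SBM onecut1 stood at −0.99 ± 0.48, with all libraries under 1.3 CPM.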

How the data were processed

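Transcript counts from 9 intestine libraries (3 each in D3, SBM and FM, grouped by title) were used. Per the labels' protocols, total RNA went into SMARTer mRNA libraries. The authors deposited raw counts per gene and FPKM values. No aligner, counter, genome build, annotation or strand setting is named in the labels (not given in the sources used here). The deposited FPKM values equal counts over gene length and library total to within 0.00012%.

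Raw counts went into edgeR 4.0.16 (R 4.3.3). A minimum count of 10 (filterByExpr) left 19450 genes; TMM factors lay between 0.846 and 1.2. A single quasi-likelihood model held all 9 libraries, with 6 residual degrees of freedom; tests were two-sided with Benjamini-Hochberg adjustment over all genes. The SE is the log2 fold change divided by the square root of F. The fit was tested on simulated data. Alternatives used DESeq2 1.42.0 and limma 3.58.1, other scalings, filters, FPKM, a replicate block and fewer libraries. Listed names without a row were looked up among RefSeq synonyms (GRCz12tu, names only). For the pathway lists, the 2 genes with the lowest unadjusted p per comparison are named. Genes and lists were chosen with earlier results of these data known. Sequences were not used here. Counting precision follows from 34436497 to 36203230 counts per library and covers counting error only.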

Additional observations from a re-analysis of the deposited data

How the results depend on the processing

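edgeR called 0 genes in each comparison under each alternative except 1, and limma-voom called 0. DESeq2 called 918 genes for D3 against FM, 5 for D3 against SBM and 238 for SBM against FM, none of them among the 8 tested genes. Without the 3 libraries highest in hepatocyte genes, edgeR called 2053 of 21008 genes (9.77%) in D3 against FM. Among them were vil1 (log2 fold change −1.21), epcam and cdhr5a. D3 is then library 3 alone, which is assumed to vary like the other groups. It is the library highest in epcam and cdhr5a and lowest in vil1. The direction of these 3 values was fixed by the choice of libraries, and no call from this fit is read as a result. There the median over the 8 genes was −1.16 for D3 against FM and −0.44 for D3 against SBM, where vil1 (−0.37), cdx1b (−0.76), cdh1 (−0.63) and cdh17 (−0.50) turned negative; the cause was not tested. Leaving out 1 library at a time moved D3 against SBM from −0.12 to 0.36 for vil1, −0.081 to 0.45 for cdx1b, −0.13 to 0.27 for cdh1, −0.16 to 0.28 for cdh17 and −0.28 to 0.31 for pdzk1, across 0 in each case. With all libraries the median over the 8 genes was −0.52 for SBM against FM, −0.40 for D3 against FM and 0.07 for D3 against SBM; with 1 left out it ran from −0.58 to −0.34 for SBM against FM, −0.64 to −0.19 for D3 against FM (−0.19 without D3 library 3) and −0.12 to 0.16 for D3 against SBM. Replicate numbers are not said to pair samples: same-numbered libraries correlated at −0.58 to 0.52 after removal of group means, and not every library correlated best with its own number. With the number as a block edgeR again called 0 genes, with medians over the 8 genes of −0.53 in SBM against FM, −0.42 in D3 against FM and 0.06 in D3 against SBM. The 6 genes lower than FM, which were grouped by that sign, kept it under library size scaling, with medians of −0.31 in D3 and −0.40 in SBM. There cdh1 (−0.03 in D3, −0.05 in SBM) and cdx1b (−0.04 in D3, −0.12 in SBM) lay within their SE of 0.29 and 0.35, so their sign is not firm. Depth limits espn and cdhr5a.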
